A study of Homo sapiens with 66 samples.

Results

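Poly(A) RNA was compared between A375 cells that had lost MED23 and A375 cells with a control guide, both of which overexpressed SOX10. A375 is a human melanoma line with mutant BRAF. The 6 libraries, of 66 in the series, were chosen by their labels alone: 3 from cells with guide 1 against MED23 and the SOX10 construct (genotype MED23 KO/SOX10 OE, hereafter MED23 knockout with SOX10) and 3 from cells with a guide against GFP and the same construct (genotype SOX10 OE, hereafter GFP guide with SOX10). The same experiment holds 3 libraries of each genotype with an empty vector in place of SOX10, labelled MED23sg1 with EV and GFPsg with EV. These 4 groups carry no treatment label and share 1 batch label. MED23 loss was also read in other experiments of the series, with 3 libraries a group. In the Mediator experiment these were guide 1 and the GFP guide, both in DMSO for 24 h. In the HDAC3 experiment the samples are titled MED23KO and Ctrl, without a guide. The main comparison asks what MED23 loss still changes when SOX10 is supplied. 1 guide was used, and the labels do not say how the guide or the construct was delivered, whether the cells were clones or pools, or whether replicates were separate cultures. P-values therefore measure the spread between these libraries, which may be technical.

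MED23 belongs to the tail module of Mediator, the large complex through which transcription factors engage RNA polymerase II. Tail subunits are the parts that activators bind, and MED23 is known as a partner of the ETS factor ELK1, which with SRF switches on immediate early genes such as EGR1 after ERK signalling. SOX10 is the transcription factor that specifies neural crest derivatives. In melanoma it drives melanocytic and glial genes (MITF, DCT, ERBB3), and cells that lose it move toward a dedifferentiated, EGFR-high state.

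The guide was checked first on its own target. MED23 (ENSG00000112282, chromosome 6, 131573966 to 131628229, GRCh38) had 16.1, 14.3 and 15.8 CPM in MED23 knockout cells with SOX10, against 32.4, 32.6 and 30.8 CPM in GFP-guide cells with SOX10; CPM is counts scaled to library sizes of equal total. The groups did not overlap, and the log2 fold change was -1.05 ± 0.055 (SE, adjusted p = 1.0e-15), or 48.2% of the control level. The mRNA that remained does not measure MED23 protein. With the empty vector the same contrast was -0.95 ± 0.055, and the difference between the 2 effects was -0.10 ± 0.079 (adjusted p = 0.443).

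SOX10 (ENSG00000100146, chromosome 22, 37970686 to 37987422) had 428, 436 and 423 CPM in MED23 knockout cells with SOX10, against 589, 600 and 612 CPM in GFP-guide cells with SOX10. It was thus still lower after MED23 loss, by a log2 fold change of -0.48 ± 0.03 (adjusted p = 5.0e-14). With the empty vector it had 239, 248 and 251 CPM in MED23 knockout cells, against 530, 531 and 514 CPM in GFP-guide cells (-1.09 ± 0.03), and the effect was less negative with the construct by 0.61 ± 0.042 (adjusted p = 7.4e-12). The SOX10 counted in MED23 knockout cells with the construct therefore lay between both empty-vector groups and did not reach that of GFP-guide cells with empty vector; this pair of groups was not tested. Whether the construct's transcript is fully counted at this gene is not known, and the gene overlaps POLR2F on the other strand.

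The 6 libraries held 24.87 to 30.77 M counts. Of these, 2 stood apart. Replicate 1 of the MED23 knockout with SOX10 differed from its 2 replicates by 5.10 and 5.78 times the Poisson variance, against 1.42 to 2.97 for the other pairs of the experiment, and its short genes were low (-0.089 on the log2 scale in the class of shortest genes, 0.063 in that of the longest). Replicate 3 of GFP guide with SOX10 stood apart less (2.97 and 2.88). Counts of list members were therefore repeated without them. Of 12 melanoma identity markers 11 passed the low-count filter, with SOX10, CSPG4, NGFR, S100B and MITF at 54.6 CPM or more on average in both groups, while TYR did not pass, and MLANA and PMEL were near 1 CPM. Markers of other cell types were also read: 8 of 16 epithelial, 9 of 16 blood and endothelial and 8 of 12 fibroblast genes passed. Over all genes, 18009 of 58721 passed. Blood and endothelial genes summed to 15.4 to 17.2 CPM in MED23 knockout with SOX10 and 24.6 to 26.1 CPM in GFP guide with SOX10. Fibroblast genes summed to 38.5 to 39.2 CPM and 26.4 to 27.2 CPM. PTPRC, CD3E, EPCAM and COL1A2 did not pass the filter. The epithelial sum, 186 to 199 CPM against 155 to 163 CPM, came mostly from the keratin KRT18. The part of these genes in the results was not tested.

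With SOX10 supplied, 594 of 18009 genes tested differed between MED23 knockout and GFP-guide cells at an adjusted p under 0.05 and at least 2-fold (3.3%), 325 higher (1.8%) and 269 lower (1.49%). At the adjusted p alone, the rule used below for single genes and list members, 32.4% of all genes passed: 2894 genes rose (16.1%) and 2936 fell (16.3%), and the median over all genes was 0.00. In bulk RNA, fewer cells of a kind and less RNA per cell cannot be told apart.

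Among the 12 highest genes were regulators of growth-factor signals and matrix. IGFBP7, a secreted binding protein of insulin-like growth factors, had 16.2, 17.7 and 16.7 CPM in MED23 knockout cells with SOX10, against 2.23, 1.87 and 1.87 CPM in GFP-guide cells with SOX10 (3.07 ± 0.094, adjusted p = 3.3e-21). IL17RD, a membrane inhibitor of FGF and ERK signalling also called SEF, had 23.4, 22.5 and 21.8 CPM, against 3.25, 3.50 and 2.94 CPM with the GFP guide (2.81 ± 0.092). Both genes were several-fold higher in every MED23 knockout library than in any GFP-guide library. ARHGAP29, a RhoA-inactivating protein, had 51.2, 53.1 and 51.2 CPM, against 11.2, 9.65 and 10.9 CPM with the GFP guide (2.29 ± 0.054). COL12A1, a fibril-associated collagen, had 122, 106 and 109 CPM, against 34.1, 32.8 and 32.6 CPM with the GFP guide (1.76 ± 0.049). PAPSS2, which makes the sulphate donor for proteoglycans, had 45.1, 43.0 and 44.5 CPM, against 11.8, 11.0 and 10.2 CPM with the GFP guide (2.00 ± 0.059). The groups of these 5 genes did not overlap, which the rule that named them required. The other 7 were the guanine deaminase GDA (2.21 ± 0.079), the urea transporter SLC14A1 (2.07 ± 0.1), EVA1A (1.99 ± 0.087), the teneurin TENM2 (1.89 ± 0.12), the kinesin KIF26B (1.86 ± 0.08), the protease-activated receptor F2RL1 (1.79 ± 0.083) and the carboxypeptidase CPA4 (1.77 ± 0.053).

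The 12 lowest genes held an anchoring protein, growth-factor response factors and lineage genes. LAD1, a protein of epithelial basement membranes, had 1.38, 1.03 and 1.75 CPM in MED23 knockout cells with SOX10, against 13.3, 14.7 and 13.5 CPM in GFP-guide cells with SOX10 (-3.31 ± 0.12, adjusted p = 2.9e-19). The secreted peptide gene FDCSP had 2.41, 3.03 and 2.97 CPM, against 27.1, 25.5 and 25.9 CPM with the GFP guide (-3.22 ± 0.088). IL24, a cytokine of the IL-10 family first found in differentiating melanoma cells, had 18.6, 19.3 and 19.3 CPM, against 105, 107 and 113 CPM with the GFP guide (-2.50 ± 0.046). All 3 were at a small fraction of the control level in each knockout library. FST, the secreted antagonist of activins, had 50.4, 53.6 and 53.2 CPM, against 212, 222 and 215 CPM with the GFP guide (-2.05 ± 0.04). CEMIP, which takes part in hyaluronan breakdown, had 57.7, 56.1 and 57.6 CPM, against 231, 235 and 227 CPM with the GFP guide (-2.01 ± 0.042). The neuropeptide precursor VGF had 41.2, 43.2 and 40.5 CPM, against 165, 169 and 161 CPM with the GFP guide (-1.98 ± 0.037). These 3 transcripts stood at 24.2%, 24.7% and 25.3% of the control level. The protease inhibitor A2M (-2.21 ± 0.046) and the urocortin UCN2 (-2.17 ± 0.071) were also among the lowest, and DCT, EGR1, RXRG and EGR3 are described with their groups. Of the genes named so far, ARHGAP29, EVA1A, IGFBP7, IL17RD, KIF26B, PAPSS2, SLC14A1, TENM2, A2M, CEMIP and LAD1, as well as EGR3 and MED23, overlap a gene on the other strand, and the strand setting of the counting is not given. The same holds, among the genes described further on, for AKAP6, ARPP21, AXL, CCN2, CCND1, CCNE2, CIITA, COL5A1, CRIM1, DUSP1, DUSP6, EGFR, EPHA2, EPHA4, F2R, FADS2, FOXD3, HLA-B, ITGB3, L1CAM, LOXL4, MED13L, NLRC5, NR4A1, NRG1, NRP1, NRP2, PAX3, PDE5A, PDGFC, PLEKHS1, ROR1, SLC24A2, SLC7A11, SOX9, SPARC, SPRY4, STRA6, TAP1, TFAP2A, TNC, TNFAIP3, TP53INP1, TPM1, VEGFC and WWTR1; without strand in the counting, reads of such a gene and its partner cannot be told apart.

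These 24 genes moved the same way in 3 other measurements of MED23 loss in the series. They passed an adjusted p of 0.05 in the empty-vector cells of the same experiment (43.4% of all genes: 21.2% higher, 22.3% lower). The same held with guide 1 in DMSO in the Mediator experiment (43.8% in either direction). It also held in the HDAC3 experiment (27.7% in either direction), whose control libraries were identified by elimination. Guide 1 is also the guide of the SOX10 experiment. MED23 knockout groups with another guide, with the drug vemurafenib or with HDAC3 loss were not read here. PAPSS2 was at 2.00 ± 0.059 with SOX10, 0.93 ± 0.058 with empty vector, 0.35 ± 0.05 in DMSO and 0.38 ± 0.054 in the HDAC3 experiment. DCT was lower with wider errors where it is hardly expressed, at -3.09 ± 0.077 with SOX10, -3.39 ± 0.27 with empty vector, -4.89 ± 0.35 in DMSO and -4.34 ± 0.34 in the HDAC3 experiment.

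**Figure D1:**
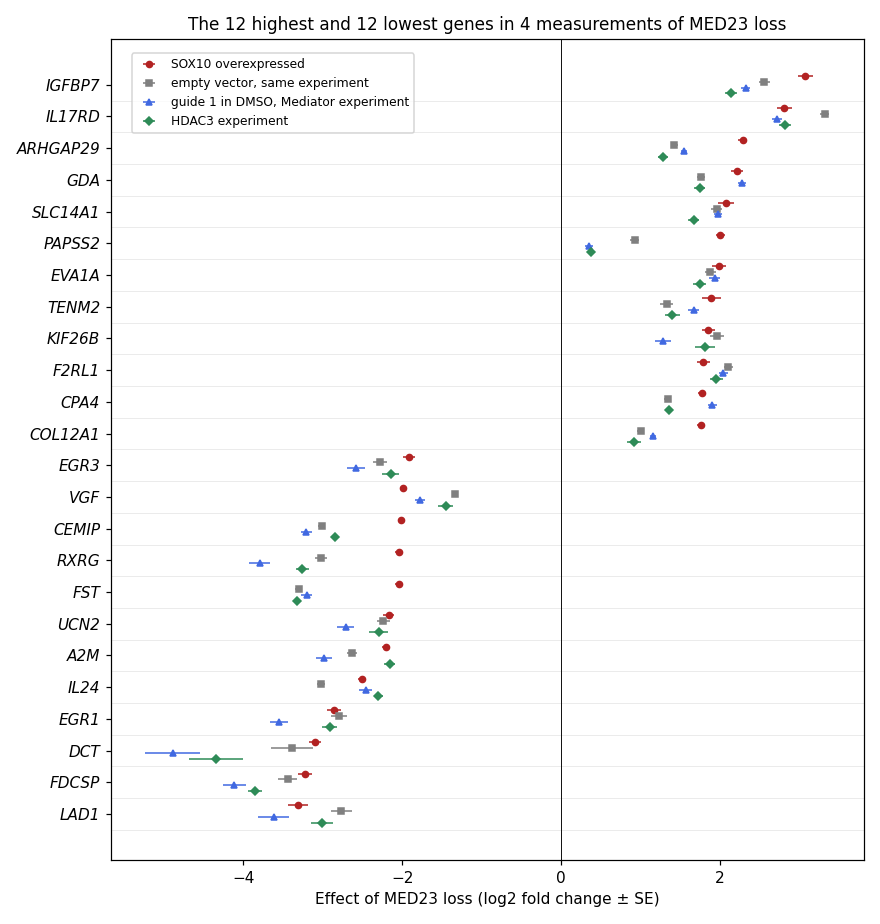
Log2 fold change ± SE of MED23 loss (x axis) for the 12 highest and 12 lowest genes (rows) with SOX10 overexpressed, with empty vector, with guide 1 in DMSO, and in the HDAC3 experiment, 3 libraries a group. Every point of the 12 upper genes lies right of 0 and every point of the 12 lower genes left of 0, with PAPSS2 farther right with SOX10 than in the other 3 settings.

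Neural crest and SOX10-associated genes fell more often than they rose. Of 25 listed genes 23 were tested, of which 15 fell and 3 rose with SOX10 supplied (median -0.28), while 17 fell and 3 rose with empty vector (median -0.87), where 22.3% of all genes fell and 21.2% rose; without replicate 1 of the knockout 13 fell. RXRG, a retinoid X receptor of neural crest-like melanoma cells, had 21.6, 22.2 and 25.6 CPM in MED23 knockout cells with SOX10, against 92.9, 94.9 and 96.8 CPM in GFP-guide cells with SOX10 (-2.04 ± 0.049, adjusted p = 1.5e-23). FOXD3 and TFAP2B, transcription factors of the neural crest, fell by 1.24 ± 0.085 and by 0.84 ± 0.039 on the log2 scale. These 3 genes remained clearly separated between genotypes, although RXRG reached only 4.17 CPM on average in MED23 knockout cells with empty vector. SOX8, a close relative of SOX10, changed by -1.89 at about 2 CPM in the control. Against the list, TFAP2A, another factor of this lineage, rose by 1.36 ± 0.072, the adhesion molecule L1CAM by 0.95 ± 0.035 and the integrin ITGA4 by 0.14.

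For other members of the list, named after their values were seen, the effect differed between SOX10 and empty vector. ERBB3, the neuregulin receptor kinase, had 515, 512 and 508 CPM in MED23 knockout cells with SOX10, against 574, 585 and 575 CPM in GFP-guide cells with SOX10 (-0.18 ± 0.032, adjusted p = 5.2e-05). With empty vector it had 191, 205 and 213 CPM in MED23 knockout cells, against 497, 504 and 505 CPM in GFP-guide cells (-1.31 ± 0.033), so the effect of MED23 loss was 1.13 ± 0.046 less negative with SOX10 (adjusted p = 3.6e-17). CDH19, a cadherin of glial cells, followed the same pattern and changed by -0.40 ± 0.038 with SOX10 and by -1.82 ± 0.046 with empty vector. The calcium-binding S100B changed by -0.17 ± 0.052 with SOX10 (adjusted p = 0.0146) and by -1.41 ± 0.063 with empty vector. Its call with SOX10 was lost without replicate 1 of the knockout (-0.10), or without replicate 2 or 3 of the control (-0.15 and -0.12). NGFR, the neurotrophin receptor, had 92.8, 93.1 and 95.7 CPM in MED23 knockout cells with SOX10, against 92.4, 86.3 and 99.3 CPM in GFP-guide cells with SOX10, a range that contains them (0.02 ± 0.04, adjusted p = 0.795); with empty vector it fell by 0.87 ± 0.039. Over the list, the effect differed between SOX10 and empty vector for 14 genes in the positive direction and 3 in the negative one (7.64% and 7.04% of all genes tested).

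Of 19 melanocytic genes 13 were tested; 5 fell and 2 rose with SOX10 supplied (median -0.33), while 4 fell and 5 rose with empty vector (median 0.13), and the difference between the effects was negative for 4 and positive for 0. Without replicate 2 of the knockout 1 rose. TYR, TYRP1 and TRPM1 did not pass the low-count filter. DCT, the pigment enzyme dopachrome tautomerase, had 3.97, 4.03 and 4.11 CPM in MED23 knockout cells with SOX10, against 35.5, 35.5 and 32.5 CPM in GFP-guide cells with SOX10 (-3.09 ± 0.077, adjusted p = 2.2e-23). With empty vector it had at most 0.305 CPM in MED23 knockout cells, against 1.79 to 2.35 CPM in GFP-guide cells. DCT was thus higher with SOX10 than without in both genotypes, and its relative loss with MED23 did not differ between them at this depth (0.29 ± 0.33, adjusted p = 0.643). MITF, the master factor of melanocytes, had 59.0, 51.2 and 53.6 CPM in MED23 knockout cells with SOX10, against 92.0, 96.5 and 91.6 CPM in GFP-guide cells with SOX10 (-0.77 ± 0.043, adjusted p = 4.3e-15). With empty vector MITF was slightly higher in the knockout, at 67.0, 62.4 and 66.1 CPM in MED23 knockout cells, against 56.7, 57.4 and 58.3 CPM in GFP-guide cells (0.18 ± 0.044). The effect of MED23 loss on MITF therefore had opposite signs with and without SOX10, a difference of -0.95 ± 0.062 (adjusted p = 1.5e-12). GPNMB, a lysosomal glycoprotein of pigment cells, showed the same change of sign, at -0.26 with SOX10 and 0.12 with empty vector. PAX3, an upstream factor of MITF, rose by 0.22 ± 0.061, and MLPH, which links melanosomes to myosin, by 1.21.

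MITF has several promoters, of which the RefSeq table holds 3 start sites; counts per gene do not tell which was used. The melanocyte-type start site is shown because its upstream region holds the cAMP response element that is the textbook site of MITF regulation, and because the MITF effect turned round with SOX10. The 250 bases before it run as chr3:69936342-69936591 (plus strand, GRCh38.p14, RefSeq), with the motif TGACGTCA in capitals, 152 bases before the start.
MITF: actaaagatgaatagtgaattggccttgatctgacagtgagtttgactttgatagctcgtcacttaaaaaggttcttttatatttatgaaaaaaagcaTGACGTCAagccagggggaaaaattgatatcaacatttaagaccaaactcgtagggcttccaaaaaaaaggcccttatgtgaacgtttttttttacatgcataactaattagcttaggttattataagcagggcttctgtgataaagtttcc
TGACGTCA reads the same on both strands and was found in 1.65% of 35116 promoters of this table searched over the same length. It was in 2.75% of those of the genes tested, in 0.935% of the genes called higher and in 3.97% of those called lower.

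**Figure D2:**
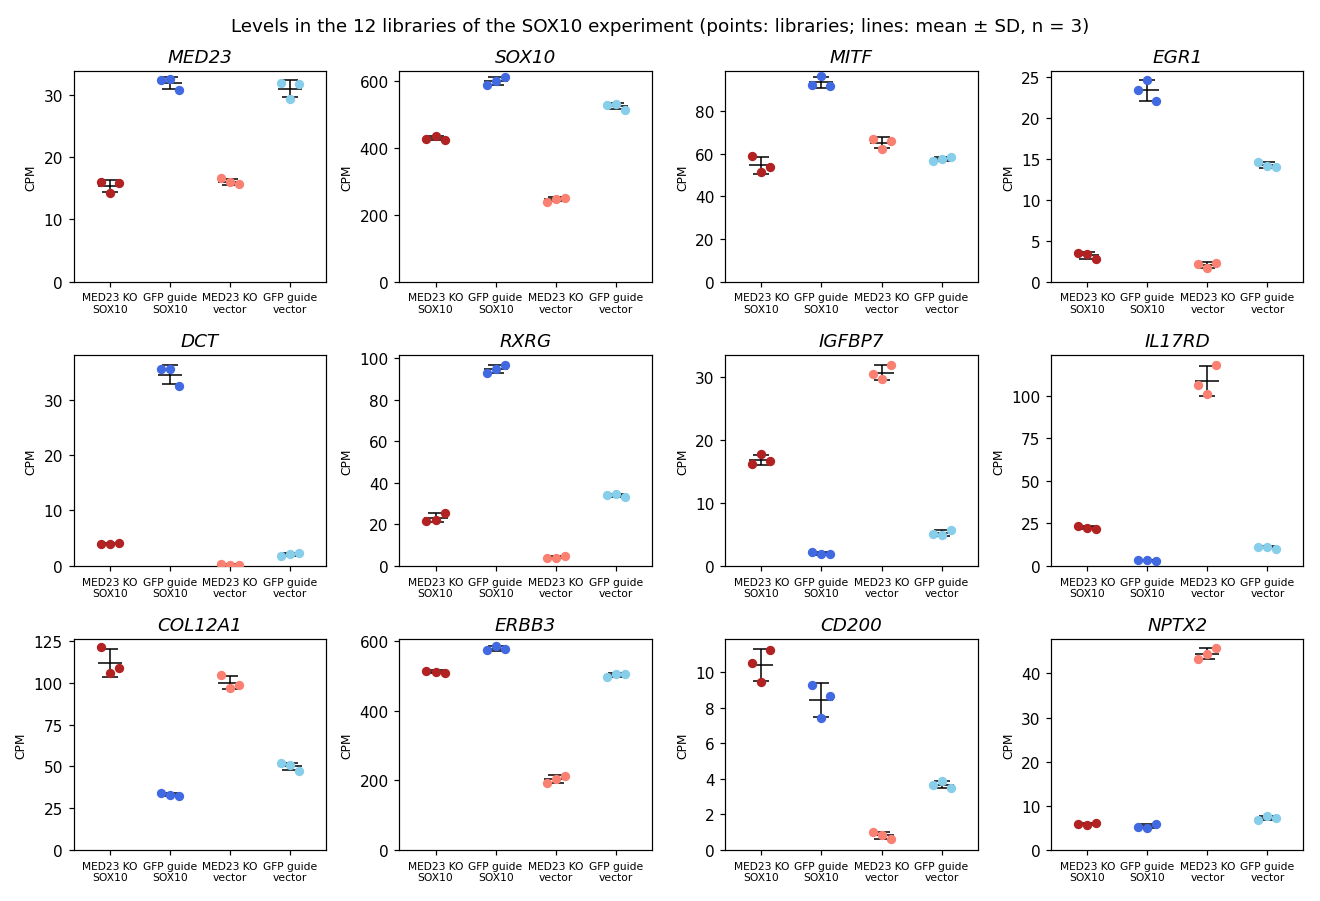
CPM (y axis, linear from 0) of 12 genes in each of the 12 libraries of the SOX10 experiment, with mean ± SD (n = 3): MED23 knockout with SOX10, GFP guide with SOX10, MED23 knockout with empty vector, GFP guide with empty vector. ERBB3 is at 508 to 515 CPM in MED23 knockout cells with SOX10 and at 191 to 213 CPM with empty vector, whereas EGR1 is at 3.48 CPM or less in both knockout groups.

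Immediate early genes, the rapid transcriptional response to growth factors, fell more often than they rose with SOX10 supplied. Of 20 tested, 10 fell, 4 rose and 6 did not pass (median -0.20); with empty vector 8 fell and 3 rose (median -0.13). EGR1, the zinc-finger factor that ELK1 and SRF induce, had 3.48, 3.44 and 2.72 CPM in MED23 knockout cells with SOX10, against 23.3, 24.6 and 22.1 CPM in GFP-guide cells with SOX10 (-2.86 ± 0.087, adjusted p = 2.7e-21). The groups were far apart, and the effect did not differ detectably from that with empty vector (difference -0.06 ± 0.16, adjusted p = 0.863). EGR3 had 4.65, 5.06 and 4.36 CPM, against 17.7, 18.8 and 16.7 CPM with the GFP guide (-1.92 ± 0.079). NR4A1, an orphan nuclear receptor, had 22.5, 21.2 and 21.1 CPM, against 54.1, 54.6 and 55.9 CPM with the GFP guide (-1.35 ± 0.045), less than its change of -2.32 ± 0.054 with empty vector (adjusted p of the difference = 3.8e-11). NR4A3 changed by -0.89, and FOS by -0.48 ± 0.12. Against the list, the stress factor ATF3 rose by 0.98 ± 0.13, BTG2 by 0.44 ± 0.058, DUSP1 by 0.20 and IER5 by 0.14; without replicate 2 of the knockout 2 rose. SRF itself, at 43.8 CPM in MED23 knockout and 47.0 CPM in GFP-guide cells, did not pass.

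The EGR1 promoter is shown because CArG boxes, the DNA element of SRF, sit close to the start of the gene with the lowest value of this list. The 250 bases before the start run as chr5:138465229-138465478 (plus strand, GRCh38.p14, RefSeq), with both CArG boxes (CC, 6 bases of A or T, GG) in capitals, 105 and 83 bases before the start.
EGR1: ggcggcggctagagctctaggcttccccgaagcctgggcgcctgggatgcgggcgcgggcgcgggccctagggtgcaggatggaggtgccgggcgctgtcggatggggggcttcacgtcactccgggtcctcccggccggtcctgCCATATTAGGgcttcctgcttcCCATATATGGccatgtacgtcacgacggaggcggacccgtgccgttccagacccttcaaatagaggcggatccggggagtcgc
A CArG box on either strand was found in 1.16% of the 35116 promoters, in 1.02% of those of the genes tested, in 3 of the 151 genes called lower that have a promoter in the table (1.99%) and in 1 of the 214 called higher (0.467%).

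The steady output of the ERK pathway was mixed. Of 20 listed genes 11 fell and 8 rose (median -0.14), and 11 fell and 7 rose with empty vector; without replicate 3 of the control 5 rose. SPRY4, a feedback inhibitor of receptor kinases, had 203, 194 and 199 CPM in MED23 knockout cells with SOX10, against 376, 395 and 374 CPM in GFP-guide cells with SOX10 (-0.94 ± 0.037, adjusted p = 9.0e-19). MYC changed by -1.16 ± 0.062 and the ERK phosphatase DUSP4 by -0.66. DUSP6, another ERK phosphatase, changed by -0.19 with SOX10 and by 0.11 with empty vector. In the other direction, the ephrin receptor EPHA4 rose by 1.00 ± 0.076, EPHA2 by 0.49 and the feedback inhibitor SPRY1 by 0.34 ± 0.06. CCND1, at 0.07 and 328 CPM against 314 CPM, did not pass.

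Dedifferentiated and invasive genes rose more often than they fell with SOX10 supplied. Of 21 tested, 13 rose, 3 fell and 5 did not pass (median 0.41), and 17 rose and 1 fell with empty vector (median 0.43). EGFR had 24.4, 20.6 and 20.7 CPM in MED23 knockout cells with SOX10, against 8.24, 8.67 and 9.06 CPM in GFP-guide cells with SOX10 (1.34 ± 0.07, adjusted p = 1.3e-15). With empty vector it had 79.8, 80.8 and 81.7 CPM in MED23 knockout cells, against 14.7, 15.5 and 13.9 CPM in GFP-guide cells, and the effect was smaller with SOX10 by 1.12 on the log2 scale (adjusted p = 3.1e-10). The factor SOX9 had 98 counts over the 3 knockout libraries with SOX10, against 17 over the control libraries (2.48 ± 0.34), and averaged 1.15 CPM against 0.204 CPM; with empty vector it averaged 10.3 CPM against 1.09 CPM. The ligand NRG1 rose by 1.34 ± 0.19 and the thrombin receptor F2R by 0.89. TPM1, an actin-binding tropomyosin, had 155, 156 and 160 CPM, against 78.7, 75.1 and 75.6 CPM with the GFP guide (1.04 ± 0.038), more than its 0.22 ± 0.039 with empty vector (adjusted p of the difference = 3.1e-12). AXL rose by 0.41 ± 0.034. The matrix proteins FN1 (-0.54) and TNC (-0.24) and the AP-1 factor FOSL1 (-0.18) moved against the list.

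Receptor tyrosine kinases and their ligands rose more often than they fell, 16 and 8 of 30 tested (median 0.26), against 15 and 8 with empty vector (median 0.13). Besides EGFR and NRG1, the Wnt receptor ROR1 rose by 1.31 and the ligand PDGFC by 1.30. FGFR3 rose by 0.62 ± 0.11 with SOX10, where its effect with empty vector was -0.11 ± 0.11. Among those that fell were the TAM receptor TYRO3 (-0.44), FGFR4 (-0.26) and the EGFR ligand TGFA (-0.19), as well as the ligands HGF and AREG, which averaged at most 1.01 CPM.

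YAP/TEAD targets, which respond to cell shape and the Hippo pathway, rose more often than they fell, 18 and 4 of 25 (median 0.34), against 14 and 5 with empty vector (median 0.20). The difference between the effects with SOX10 and with empty vector was positive for 11 of them and negative for 1. CCN2, a matricellular protein and the best known target, had 84.9, 83.6 and 83.3 CPM in MED23 knockout cells with SOX10, against 37.8, 37.9 and 40.0 CPM in GFP-guide cells with SOX10 (1.12 ± 0.04, adjusted p = 1.3e-19). AJUBA, a LIM protein of cell junctions, had 43.2, 39.7 and 38.7 CPM, against 19.8, 19.3 and 20.6 CPM with the GFP guide (1.02 ± 0.049). CCN1 rose by 0.68 ± 0.036, CRIM1 by 0.84 ± 0.04 and TGFB2, at a few CPM, by 1.37 ± 0.16. AMOTL2, a Hippo scaffold, rose by 0.57 ± 0.039 with SOX10, where its effect with empty vector was -0.01 ± 0.038. In the 4 groups CCN2 averaged 84.0 CPM in MED23 knockout with SOX10, 38.5 in GFP guide with SOX10, 81.2 in MED23 knockout with empty vector and 47.4 in GFP guide with empty vector. The libraries of both knockout groups overlapped in range, and those of the control with SOX10 were the lowest of the experiment. IGFBP3 (-0.89 ± 0.053), ANKRD1 (-0.58), the coactivator WWTR1 (-0.35) and TEAD4 (-0.12) fell.

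The CCN2 promoter is shown because TEAD factors bind the word GGAATG, and the region before this gene's start holds 3 copies of it. The 250 bases run as chr6:131951373-131951622 (minus strand, GRCh38.p14, RefSeq), with the 3 copies in capitals, 169, 104 and 95 bases before the start.
CCN2: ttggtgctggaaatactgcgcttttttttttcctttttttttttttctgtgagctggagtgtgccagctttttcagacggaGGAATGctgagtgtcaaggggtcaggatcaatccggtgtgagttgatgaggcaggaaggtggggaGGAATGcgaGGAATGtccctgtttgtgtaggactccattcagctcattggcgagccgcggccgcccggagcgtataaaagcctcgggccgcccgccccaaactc
GGAATG on either strand was found in 11.9% of the 35116 promoters, in 9.65% of those of the genes tested, in 11.2% of the genes called higher and in 12.6% of those called lower.

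Matrix and TGF-beta genes moved both ways with SOX10 supplied. Of 27 tested, 11 rose and 7 fell (median 0.11), against 18 and 4 with empty vector (median 0.36), and the difference was negative for 12 genes and positive for 2. COL5A1, a fibrillar collagen, had 52.0, 49.7 and 47.9 CPM in MED23 knockout cells with SOX10, against 15.7, 15.2 and 15.8 CPM in GFP-guide cells with SOX10 (1.68 ± 0.05), and COL1A1 rose by 1.40 ± 0.12. LOXL4, a collagen cross-linking enzyme, had 179, 179 and 177 CPM, against 480, 497 and 499 CPM with the GFP guide (-1.46 ± 0.035). TGFBI, a matrix protein induced by TGF-beta, had 158, 156 and 158 CPM in MED23 knockout cells with SOX10, against 271, 262 and 264 CPM in GFP-guide cells with SOX10 (-0.76 ± 0.033). With empty vector TGFBI had 362, 387 and 389 CPM in MED23 knockout cells, against 223, 231 and 238 CPM in GFP-guide cells (0.72 ± 0.033), so its effect turned round. FN1 and SPARC (-0.33) also fell with SOX10 and rose with empty vector (0.12 and 0.36). The fibroblast gene COL1A2 did not pass the filter, and the summed fibroblast markers given above were higher in the knockout; their part in these values was not tested.

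Cell adhesion and guidance genes rose more often than they fell, 21 and 6 of 30 tested (median 0.19), against 18 and 8 with empty vector. The semaphorin SEMA3A had 57.7, 55.1 and 55.6 CPM in MED23 knockout cells with SOX10, against 18.0, 19.7 and 19.4 CPM in GFP-guide cells with SOX10 (1.56 ± 0.046), and SEMA3C rose by 1.16 ± 0.034. Their co-receptors went apart: NRP1 rose by 1.04 ± 0.039, whereas NRP2 had 89.8, 87.8 and 92.1 CPM, against 221, 225 and 212 CPM with the GFP guide (-1.29 ± 0.032). The integrin chain ITGB3 changed by -0.61 ± 0.042, and the cadherin CDH11 rose by 2.09 ± 0.26 at about 1 CPM.

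Antigen presentation genes fell or did not pass. Of 20 tested, 13 fell and none rose (median -0.56), whereas 11 fell and 4 rose with empty vector (median -0.45); 7 did not pass with SOX10. HLA-B, a class I heavy chain, had 65.1, 70.5 and 71.2 CPM in MED23 knockout cells with SOX10, against 126, 132 and 127 CPM in GFP-guide cells with SOX10 (-0.89 ± 0.041, adjusted p = 4.1e-17). CIITA, the master regulator of class II genes, changed by -0.56 ± 0.045, and CD74, the class II chaperone, by -0.58 ± 0.031. CD74 averaged 1024 CPM in MED23 knockout and 1527 CPM in GFP-guide cells with SOX10. For both, the change was less than with empty vector (-1.05 ± 0.049 and -1.03 ± 0.032), while HLA-B changed by -0.71 ± 0.043 there. The light chain B2M (-0.03), TAP1 (-0.09) and NLRC5, the regulator of class I genes (-0.02), did not pass. HLA genes are close paralogs, so the division of their counts is uncertain.

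Cytokine genes split. Of 16 tested, 7 fell and 4 rose with SOX10 (median -0.54), against 9 and 5 with empty vector (median -0.30). Without replicate 1 of the knockout the counts with SOX10 stayed at 7 and 4, and the median was -0.36. IL24, described above, IL1A (-1.85), the chemokine CXCL1 (-1.02) and TNFAIP3, an inhibitor of NF-kappaB (-1.16 ± 0.092), were lower. CCL2, a monocyte chemokine (1.87 ± 0.15), the lymphatic growth factor VEGFC (1.53 ± 0.083), IL11 (1.15 ± 0.12) and NFKBIA (0.23) rose. TNFAIP3 changed by 0.16 ± 0.082 with empty vector. Of 25 interferon response genes 5 rose and 7 fell with SOX10 (median 0.00), against 13 and 6 with empty vector, and the 2 with the largest values, IFI44L and OASL, had 0.682 and 0.621 CPM on average in MED23 knockout cells. IFI44L (1.496) was lost without both libraries that stood apart (0.90), and OASL (1.05) without replicate 2 of the knockout (0.93) or replicate 1 of the control (0.96).

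Cell cycle genes moved little. Of 26 tested, 12 fell and 2 rose, with log2 fold changes from -0.26 to 0.18 (median -0.09), against 21 and 0 with empty vector (median -0.25). The difference was positive for 12 genes and negative for 0. The replication factors E2F2 and E2F1 and the nucleotide reductase subunit RRM2 changed by -0.26, -0.25 and -0.24, and CCNE2 and CCNB1 rose by 0.18 and 0.12. MKI67 changed by -0.14, a call lost without replicate 2 (-0.11) or replicate 3 (-0.11) of the knockout. The 2 genes that rose were lost without any 1 of 4 libraries (replicates 1 and 2 of the control, 2 and 3 of the knockout), which left 0. CDKN1C, an inhibitor of cyclin-dependent kinases, had 16.2, 17.4 and 17.5 CPM in MED23 knockout cells with SOX10, against 11.2, 10.5 and 11.2 CPM in GFP-guide cells with SOX10 (0.63 ± 0.064); with empty vector it changed by -0.79 ± 0.066.

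Lipid synthesis genes depended on 1 library. Of 23 tested, 10 rose and 3 fell with SOX10 (median 0.05), whereas 2 rose and 14 fell with empty vector (median -0.13). Without replicate 1 of the knockout 7 rose and 5 fell, and without both libraries that stood apart 6 rose and 5 fell. The fatty acid synthase FASN changed by -0.30 ± 0.041, while the desaturase FADS2 rose by 0.27. The effect differed from that with empty vector for 14 genes, all in the positive direction. Of 13 mitochondrial mRNAs 11 fell with SOX10 (median -0.17) and 6 rose with empty vector. With SOX10, 6 fell without replicate 2 of the control or replicate 3 of the knockout, and 5 with the alternative DESeq2 test. Without replicate 1 of the knockout 12 fell, and without both libraries that stood apart 13 fell. The mitochondrial share of counts was 1.28% ± 0.092 in MED23 knockout with SOX10 and 1.42% ± 0.0171 in GFP guide with SOX10 (SD, n = 3 each).

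Of the other lists, p53 targets gave 9 that rose and 1 that fell of 19 (TP53INP1 at 0.57 ± 0.072, GDF15 at -0.78 ± 0.13), and genes of ATF4 and the unfolded protein response 2 and 11 of 21, with SDF2L1 at -0.51 and SLC7A11 at -0.27; without replicate 1 of the knockout 5 rose, and without its replicate 3 or replicate 2 of the control 1. Of 33 Mediator subunits 6 rose and 4 fell. MED23 was the only subunit past 2-fold, and MED13L of the kinase module rose most (0.36 ± 0.043), with the same value in empty-vector cells.

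The effects with SOX10 and with empty vector share no library and were set side by side. With empty vector 992 genes were called (5.51%), 537 higher (2.98%) and 455 lower (2.53%). Of the genes called higher with SOX10, 205 were also higher with empty vector, 63.1% of the SOX10 calls and 38.2% of the empty-vector calls. Of those called lower, 158 were shared, 58.7% and 34.7%, and 1 gene was called in opposite directions. The difference itself passed for 2644 genes (14.7%), 1376 in the positive direction and 1268 in the negative one, and was at least 2-fold for 280 (1.55%). In 1240 of these 2644 genes (46.9%) the effect had the same sign and was smaller with SOX10, in 334 (12.6%) it was larger, and in 1070 (40.5%) the signs were opposite. Both effects passed with opposite signs in 198 of them. Of the 594 genes called with SOX10, 161 had an effect that differed from that with empty vector, larger in 93 and smaller in 68. These genes were picked by the size of their effect with SOX10, which by itself favours larger effects there. The split of 93 and 68 therefore does not show which effect is larger.

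**Figure D3:**
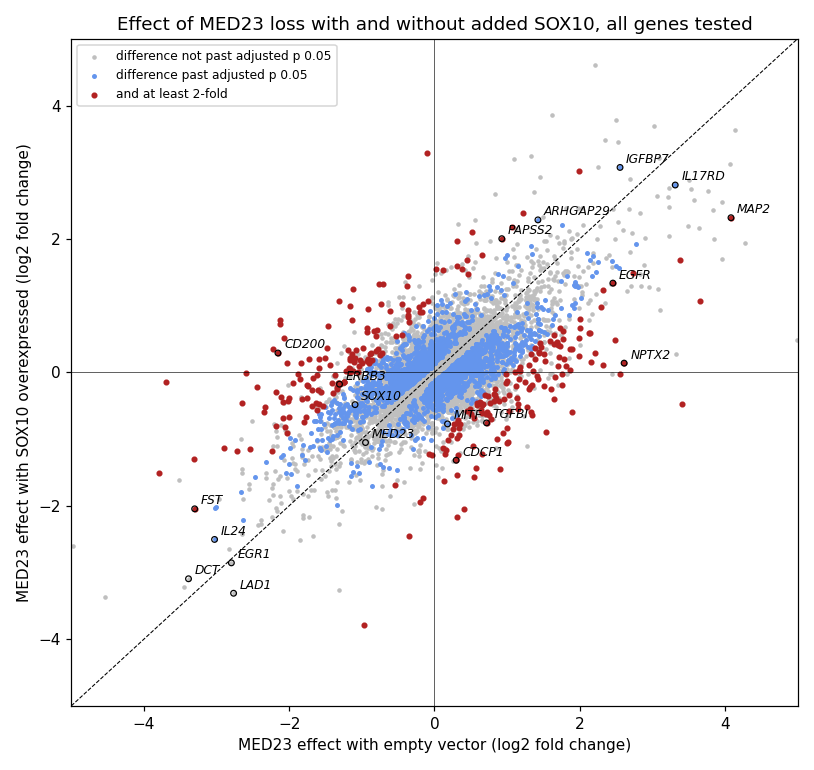
Log2 fold change of MED23 loss with SOX10 overexpressed (y axis) against that with empty vector (x axis) for the 18009 genes tested, of which 1 lies outside the axes; blue and red points passed the test of the difference, red ones at least 2-fold. EGR1, DCT and LAD1 lie near the dashed line of equal effects, ERBB3, CD200 and NPTX2 near a y value of 0, and MITF, TGFBI and CDCP1 below 0 on the y axis and above 0 on the x axis.

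Genes whose MED23 effect was much closer to 0 with SOX10 came from both directions. CD200, an immune checkpoint ligand, had 10.5, 9.43 and 11.3 CPM in MED23 knockout cells with SOX10, against 9.26, 7.41 and 8.68 CPM in GFP-guide cells with SOX10 (0.29 ± 0.091). With empty vector it had 1.03, 0.849 and 0.601 CPM in MED23 knockout cells, against 3.66, 3.87 and 3.49 CPM in GFP-guide cells (-2.15 ± 0.18), a difference of 2.44 ± 0.21 (adjusted p = 3.5e-10). The call with SOX10 alone was lost without replicate 2 of the control (0.21) or replicate 3 of the knockout (0.23). Unlike CD200, the keratin KRT14 (-0.02 ± 0.093 with SOX10, -1.88 ± 0.099 with empty vector) and ARPP21 (-0.17 ± 0.072 and -1.95 ± 0.11) did not pass with SOX10. Nor did the sperm fibrous-sheath genes ROPN1 (-0.03 ± 0.093 and -1.62 ± 0.13) and ROPN1B (0.11 ± 0.087 and -1.44 ± 0.13). ROPN1 and ROPN1B are near-identical copies with uncertain counts. PLEKHS1 had opposite signs (0.37 ± 0.077 and -1.48 ± 0.12). The collagenase MMP8 fell in both settings, by 1.13 ± 0.059 with SOX10 and by 2.90 ± 0.097 with empty vector, as did the sodium and calcium exchanger SLC24A2, by 0.37 ± 0.074 and by 2.11 ± 0.13.

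The CD200 promoter is shown as that of the gene with the largest positive difference among those named. The 250 bases before its start run as chr3:112332906-112333155 (plus strand, GRCh38.p14, RefSeq), with the SOX-type word ACAAAG, or CTTTGT for the other strand, in capitals, 213 and 158 bases before the start.
CD200: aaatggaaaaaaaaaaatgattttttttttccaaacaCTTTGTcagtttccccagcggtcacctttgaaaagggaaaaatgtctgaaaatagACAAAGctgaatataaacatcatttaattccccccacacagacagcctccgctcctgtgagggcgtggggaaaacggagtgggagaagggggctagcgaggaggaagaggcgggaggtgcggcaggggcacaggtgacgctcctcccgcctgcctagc
Either word was found in 13.7% of the 35116 promoters, and in 9.39% of the promoters of the genes tested. The share was 15.4% for the genes called higher with SOX10 and 13.2% for those called lower.

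In the negative direction, NPTX2, a pentraxin of synapses, had 5.92, 5.68 and 6.22 CPM in MED23 knockout cells with SOX10, against 5.19, 5.05 and 5.91 CPM in GFP-guide cells with SOX10 (0.14 ± 0.091, adjusted p = 0.27). With empty vector it had 43.2, 44.4 and 45.7 CPM in MED23 knockout cells, against 6.75, 7.75 and 7.31 CPM in GFP-guide cells (2.61 ± 0.062), a difference of -2.47 ± 0.11 (adjusted p = 8.7e-16). The phosphodiesterase PDE5A (0.36 ± 0.1 and 1.87 ± 0.071) and SIPA1L2, which did not pass with SOX10 (-0.06 ± 0.041 and 1.41 ± 0.043), showed the same reduction. For PDE5A the call with SOX10 was lost without both libraries that stood apart (0.27). Other genes changed sign: CDCP1, a surface substrate of SRC kinases, had 11.2, 9.95 and 9.58 CPM in MED23 knockout cells with SOX10, against 24.8, 26.5 and 25.3 CPM in GFP-guide cells with SOX10 (-1.32 ± 0.062), while it rose by 0.30 ± 0.062 with empty vector. TMEM158, a gene induced by RAS signalling, changed by -1.53 ± 0.13 and by 0.31 ± 0.11, the anchoring protein AKAP6 by -0.47 ± 0.11 and by 1.15 ± 0.099, and the retinol transporter STRA6 by -0.64 ± 0.057 and by 0.76 ± 0.05.

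**Figure D4:**
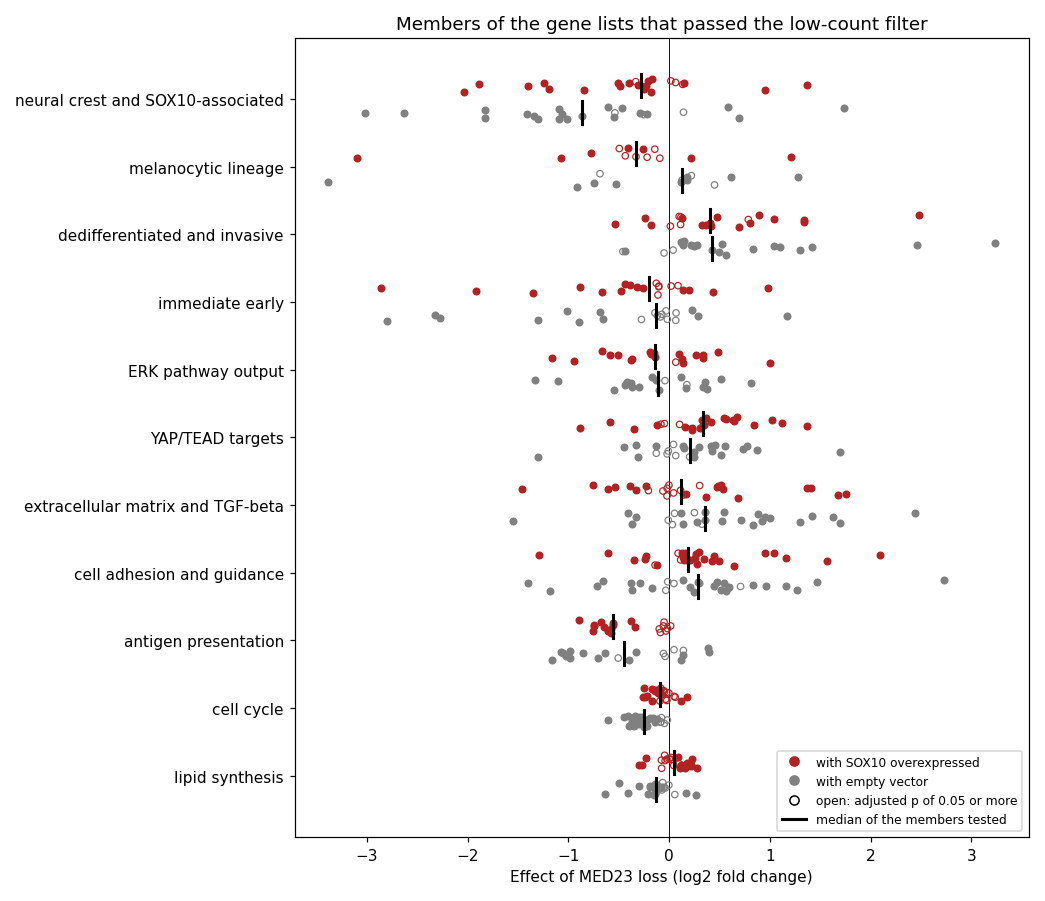
Log2 fold change of MED23 loss (x axis) for each tested member of 11 gene lists (rows), with SOX10 overexpressed (red, upper) and with empty vector (grey, lower); filled points have an adjusted p under 0.05 and black bars are medians. The median of the neural crest list is -0.28 with SOX10 and -0.87 with empty vector, that of the melanocytic list -0.33 and 0.13, and that of the YAP/TEAD list 0.34 and 0.20.

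The genes that MED23 loss changed in the other experiments of the series were then read in these 6 libraries. Of 515 genes called higher with guide 1 in DMSO (2.86% of those tested in both), 329 rose and 3 fell with SOX10 (median 0.96), and 457 rose and 1 fell with empty vector (median 1.39). The difference between the 2 effects was negative for 127 of them and positive for 15. Of 539 genes called lower in DMSO (2.99%), 393 fell and 14 rose with SOX10 (median -0.75), and 472 fell and 0 rose with empty vector (median -1.25), and the difference was positive for 225 and negative for 12. The genes called in the HDAC3 experiment gave medians of 1.03 and 1.46 with SOX10 and with empty vector for 413 higher ones (2.3%) and of -0.79 and -1.32 for 443 lower ones (2.47%). All these sets were picked in cells whose labels name no SOX10 construct, like the empty-vector cells. That choice by itself favours larger effects with empty vector, and its part in these values was not tested. Called genes overlapped in the same manner: 66.8% of the genes higher with SOX10 were higher in DMSO and 61.3% in the HDAC3 experiment, and 67.8% and 61.2% of the lower ones were lower there. As shares of the calls of those experiments, these were 42.1% and 47.5% of the higher and 33.6% and 36.3% of the lower genes. In these 4 measurements together 174 genes were called higher and 132 lower.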

How the data were processed

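Per the labels' protocols, RNA came from the RNeasy Plus Mini kit, and KAPA stranded libraries were made from its poly(A) fraction. The deposited values are whole-number counts of reads per gene, and the authors used bcl2fastq, HISAT2 and HTSeq with hg38, per the submitters' processing notes. The sources used here give no versions, annotation or strand setting of the counting.

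The 12 libraries of the SOX10 experiment were fitted together with edgeR 4.0.16 in R 4.3.3 (filterByExpr with a minimum count of 10 and a minimum total of 15, TMM scaling, quasi-likelihood fit with 1 mean per group), which tested 18009 of 58721 genes; DESeq2 1.42.0 served as an alternative. P-values were Benjamini-Hochberg adjusted over all genes tested, and each SE was taken as the size of the log2 fold change over the root of its F statistic. The Mediator experiment (42 libraries, 65.88 to 211.79 M counts) and the HDAC3 experiment (12 libraries, 58.84 to 106.19 M counts) were fitted each on its own, so levels are not compared across tables. The HDAC3 control columns are named for GFP and were mapped by elimination. The column names of the SOX10 experiment omit the guide number, which was taken from the sample titles.

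Genes were named by rule: the 12 highest and 12 lowest changes among genes called at 2-fold whose mean log2 CPM reached 2 and whose groups did not overlap, the 8 highest and 8 lowest differences between the effects with SOX10 and empty vector, and up to 4 members a list, with those that moved against it and those a result turns on. Genes with under 30 counts over both groups have no fold. The comparison, the 29 gene lists and the rule were chosen with earlier results of these data known. Symbols came from GENCODE 29 (58676 IDs matched) and current names (58207 matched). For 155 of the named genes a promoter was sought in the RefSeq table, and 105 had one. Replicate numbers were not taken to pair the libraries. Deviations of same-numbered SOX10 libraries from their group means correlated at -0.151, up to 0.228, with 2 of 3 pairs above 0.1. Differently numbered SOX10 libraries of the 2 groups correlated at -0.392, up to 0.276. Over all 12 libraries, 4 of 18 same-numbered pairs were above 0.1. The procedure was tested on simulated data. Alternatives are given in the closing section. Some named genes are not reported here.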

Additional observations from a re-analysis of the deposited data

Results flagged for a closer look

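For 25 of the named genes the effect of MED23 loss differed between the SOX10-overexpressing and the empty-vector cells. It did so by the test of the difference itself and by at least 2-fold. Those named as the 8 highest or 8 lowest differences had to pass this test to be named. Over all 18009 genes tested, 280 passed at 2-fold (1.55%). The positive differences (log2, effect with SOX10 minus effect with empty vector) were 2.44 for CD200, 1.86 for KRT14, 1.85 for PLEKHS1, 1.78 for ARPP21, 1.77 for MMP8, 1.74 for SLC24A2, 1.59 for ROPN1 and 1.55 for ROPN1B. Among neural crest and SOX10-associated genes they were 1.42 for CDH19, 1.25 for S100B and 1.13 for ERBB3, and elsewhere 1.42 for CDKN1C, 1.26 for FST and 1.08 for PAPSS2. The negative differences were -2.47 for NPTX2, -2.45 for FAP, -1.84 for TMEM158, -1.77 for MAP2, -1.62 for AKAP6, -1.62 for CDCP1, -1.51 for PDE5A, -1.48 for TGFBI, -1.47 for SIPA1L2, -1.39 for STRA6 and -1.12 for EGFR. FAP, a fibroblast surface protease, had 37 counts over the 3 MED23 knockout libraries with SOX10 and 152 over those of the GFP guide, and MAP2, a microtubule protein, had 118 and 23.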

How the results depend on the processing

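The counts of 325 genes higher and 269 lower ranged from 318 to 331 and from 263 to 300 when 1 library was left out, and were 315 and 291 without both libraries that stood apart, an alternative chosen after seeing the data. They were 326 and 268 with DESeq2 size factors, 282 and 245 with DESeq2's Wald test, 374 and 328 without the low-count filter and 257 and 247 with only the 6 libraries. Without a fold minimum 2894 rose and 2936 fell, and 3811 and 4011 with empty vector. The difference passed for 1376 and 1268 genes. These counts ranged from 1111 to 1940 and from 1022 to 1526 when 1 library was left out (highest without replicate 1 of the MED23 knockout with SOX10). They were 2055 and 1608 without both libraries that stood apart, 1126 and 987 with DESeq2, and 140 and 140 at 2-fold. With a replicate block, used although the numbers were not taken to pair the libraries, 329 genes were higher and 270 lower. The difference then passed for 1535 and 1368. MED23 and SOX10 kept direction and call in every alternative run. Of 1831 values of 153 other named genes, 1789 kept direction and call, 33 lost and 1 gained the call. These 153 do not hold every gene named above. The lost calls of CCNE2 and CCNB1, for example, are not among the 33. The remaining 8 values changed sign, all near 0 and uncalled: KRT14 (-0.118 to 0.0466 without 1 library, 0.0193 without both that stood apart), ROPN1 (-0.114 to 0.0211, and 0.0593) and NGFR (-0.0302 to 0.0691 without 1 library). The 23 named differences kept direction and call in all 391 values. Low-level genes such as TEK, STMN2, KRT7, NEFM and HBA1 were among those whose call was lost. Depth limits genes near 1 CPM, such as SOX9 and MAP2.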

Other observations

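Some pathways moved both ways with SOX10 supplied. Of 19 tested BMP and ID genes 8 rose and 7 fell in MED23 knockout cells (median 0.10), beside 16.1% and 16.3% of all genes: the ligands BMP6 and BMP7 changed by -1.54 and -1.30 and the inhibitor ID4 by -0.77, whereas ID3 rose by 0.42 and ID2 by 0.49. Of 16 Wnt genes 5 rose and 6 fell, among them the ligand WNT5A (0.81), the receptor FZD2 (0.75) and the antagonist DKK1 (-0.76). The negative feedback gene NKD1 changed by -0.60 with SOX10 and by 0.73 with empty vector. Of 18 retinoic acid genes 5 rose and 5 fell, with the retinal dehydrogenase ALDH1A3 at -0.90 and the receptor RARB at 0.69. Without replicate 2 of the control 3 rose.

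Of 19 neuronal and cytoskeletal genes 7 rose and 6 fell; the progenitor filament NES changed by -0.85 and NEFL by -1.02, and DPYSL3 rose by 0.35. Of 22 lysosome and autophagy genes 5 rose and 8 fell (3 rose without replicate 2 of the control), led by the protease CTSK at -1.01, with 13.1 CPM in MED23 knockout and 26.4 CPM in GFP-guide cells with SOX10. Of 13 D-type cyclins and inhibitors 4 rose and 2 fell, and of 15 HDAC and corepressor genes 4 and 2, with HDAC3 itself at 0.10 and not passing.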
